A study of Mus musculus with 17 samples.

Results

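Chemokines are small secreted proteins that steer the movement of leukocytes, and each is read by one or more G protein-coupled receptors on the responding cell. The CC and CXC classes are named for the spacing of conserved cysteines near the start of the protein, while CX3CL1 and XCL1 stand outside both classes. Atypical receptors bind chemokines without signalling through G proteins and mostly remove them from the tissue. In the heart, resident macrophages, endothelium, fibroblasts and recruited leukocytes are all known sources or targets of these signals.

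The chemokine system was taken as all protein-coding genes whose symbol begins with Ccl, Cxcl, Ccr or Cxcr followed by a digit, together with Cx3cl1, Cx3cr1, Xcl1, Xcr1 and the 4 atypical receptors Ackr1, Ackr2, Ackr3 and Ackr4. This gave 62 genes of the 56748 in the count table, made up of 24 CC ligands, 13 CXC ligands, 2 other ligands, 11 CC receptors, 6 CXC receptors, 2 other receptors and 4 atypical receptors.

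Bulk poly(A) RNA-seq was available for 17 hearts of mice aged 12 to 16 months, with 1 library per heart. Polg hMut mice (hMut, n = 9) carried the genotype Polg iMut/iMut; +/Ckmm-cre, in which Cre under the muscle creatine kinase promoter removes a loxP-flanked wild-type Polg cassette so that proofreading-deficient mitochondrial DNA polymerase is expressed in heart. That promoter is active in striated muscle and not in the leukocytes or endothelium that carry most chemokine receptors. Animals labelled control (Ctrl, n = 8) were compared with them, and their exact genotype is not given in the sources used here. The comparison asks which chemokine signals differ in a heart whose cardiomyocytes accumulate mitochondrial DNA mutations.

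Total counts ranged from 32915159 to 46486964 per library, at which 3 counts, the floor for calling a gene detected, corresponded to between 0.0676 and 0.0951 CPM (counts scaled to a common library size with TMM normalization factors). Polg itself was higher in hMut (log2 fold change 0.74, Benjamini-Hochberg adjusted p = 0.000448, edgeR quasi-likelihood test). Cardiomyocyte markers were abundant in every library. Of 5 atrial markers, the defining genes Sln and Myl7 reached at most 0.271 and 0.514 CPM, near 0 in libraries labelled heart. The atrial list as a whole was not near 0, with a summed level of 38.6 to 166 CPM in Ctrl. In hMut that sum was 702 CPM in hMut 6, 450 CPM in hMut 9 and 78.3 to 239 CPM in the other hearts.

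A few libraries stood apart and shaped many of the values below. The summed level of 14 macrophage markers was 773 CPM in hMut 6 and 453 CPM in hMut 9, compared with 244 to 288 CPM in the other 7 hMut hearts and 204 to 279 CPM in Ctrl. The largest parts of this sum in hMut 6 were C1qa, C1qb and C1qc, at 160, 156 and 120 CPM. Lyve1 and Cd163 went the other way in hMut 6, at 0.507 and 0.762 times their Ctrl means. Each of the other macrophage markers was above its Ctrl mean in that heart. The summed level of 14 T or NK cell markers was 110 CPM in hMut 6, 12.3 CPM in hMut 9 and 3.46 to 16.0 CPM in Ctrl. The summed level of 10 B or plasma cell markers was 227 CPM in Ctrl 3 and 73.5 CPM in Ctrl 2, against at most 37.3 CPM in the other Ctrl hearts and at most 65.4 CPM in hMut. Summed cardiomyocyte markers were lowest in hMut 6 and hMut 9, at 42350 and 41092 CPM, compared with 56339 to 68605 CPM in Ctrl. In whole-tissue RNA, a change in the number of cells of a type and a change in RNA per cell cannot be told apart.

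With a floor of more than 3 counts, 34 of the 62 genes were detected in every heart, 19 in some hearts and 9 in none. The genes not detected in any heart were Ccl20, Ccl21b, Ccl21d, Ccl26, Ccl27b, Cxcl3, Cxcl15, Cxcl17 and Cxcr1, which reached at most 3 counts in a library. Ccl21b and Ccl21d had 0 counts in all 17 libraries. Both are near-identical copies of Ccl21a, and Ccl27b is a near copy of Ccl27a, so the division of reads among these copies is uncertain. Of the CXC ligands, 8 of 13 were detected in every heart, as were 12 of 24 CC ligands, 5 of 11 CC receptors, 3 of 6 CXC receptors, 3 of 4 atypical receptors, both Cx3cr1 and Xcr1, and Cx3cl1. The number of genes detected ranged from 40 to 44 per Ctrl heart and was 51 in hMut 6, 46 in hMut 9 and 41 to 44 in the other hMut hearts.

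Per kb of gene length, homeostatic chemokines were the most abundant. Cxcl12, the stromal and endothelial retention signal read by CXCR4, had a mean level of 44.9 CPM per kb over the 17 hearts, followed by Cxcl14, a homeostatic ligand of stromal cells, at 22.4 CPM per kb, and by Ackr3, the scavenger of CXCL12, at 19.4 CPM per kb. Ccl21a, the lymphatic ligand of CCR7, came next at 17.4 CPM per kb. Ccl6 and Ccl8 followed at 6.51 and 6.30 CPM per kb, and Cx3cl1, Cxcl16 and Cxcr4 lay close together at 4.53, 4.47 and 4.17 CPM per kb. The place of Ccl8 rested on hMut 6, since without that heart its mean was 3.25 CPM per kb, below those of Cx3cl1, Cxcr4 and Cxcl16 (4.17, 3.99 and 3.73 CPM per kb). In CPM without length scaling, Cxcl12 alone supplied 57.5% of the summed level of the 62 genes, Ackr3 10.2% and Cxcl14 6.40%. Inflammatory neutrophil attractants were scarce by comparison, with Cxcl1 at 0.468 CPM per kb and Cxcl5 at 0.259 CPM per kb.

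**Figure D1:**
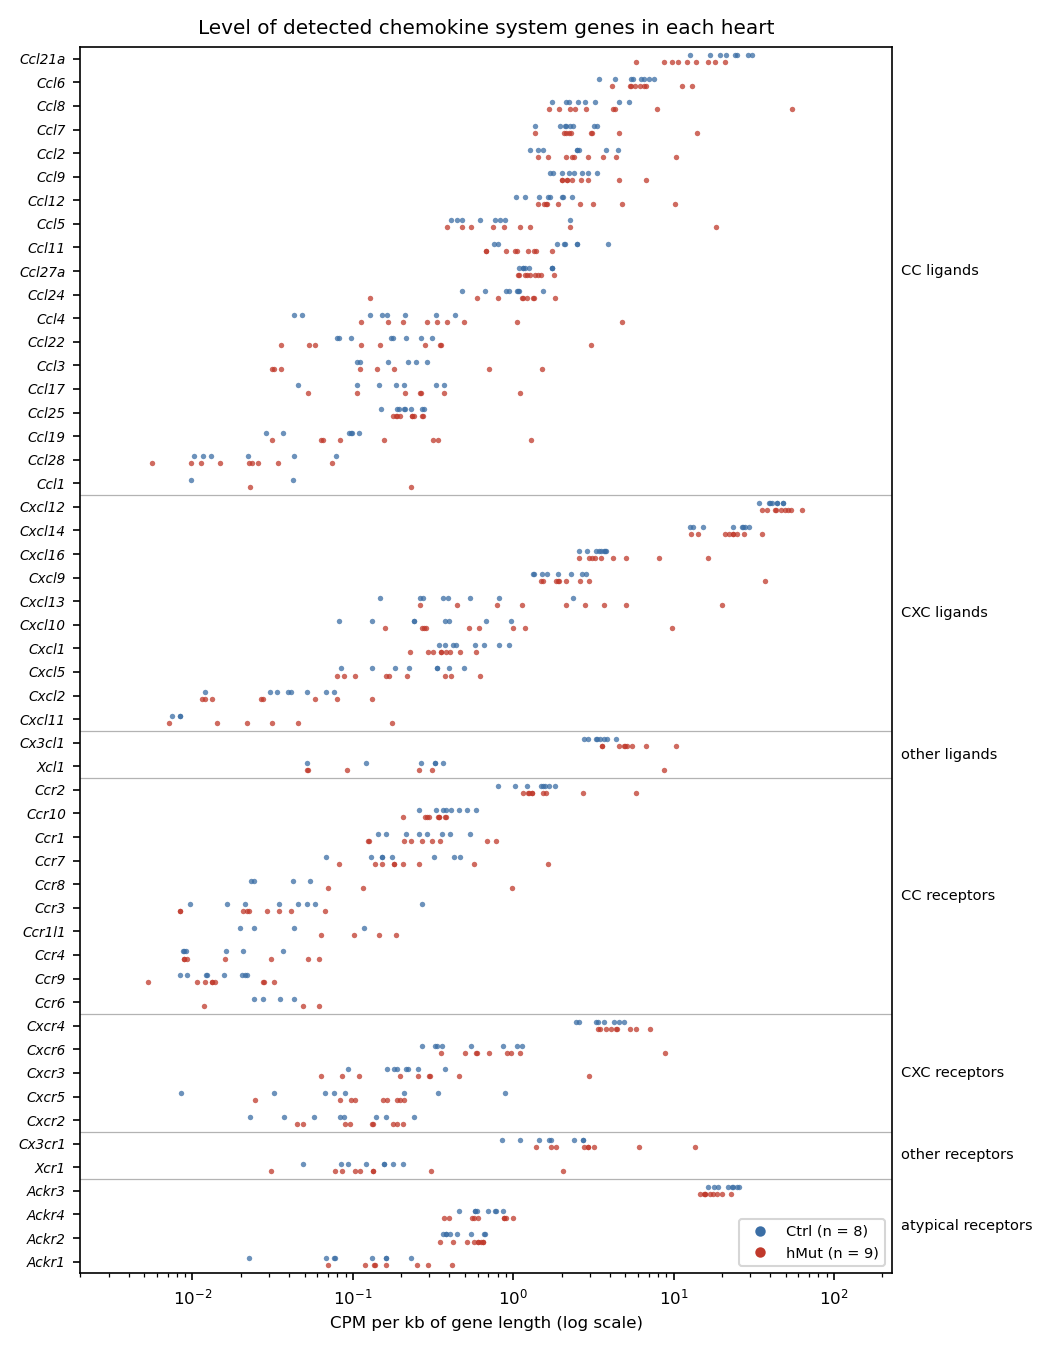
Level of 52 detected chemokine system genes in each heart, in CPM per kb of gene length on a log axis, with Ctrl hearts in blue and hMut hearts in red. Libraries at 0 counts cannot be drawn on a log axis; Cxcl12, Cxcl14, Ackr3 and Ccl21a form the top of the range, and for many inflammatory genes a single red point, hMut 6, lies far to the right.

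Of the 62 genes, 37 passed the filter on low counts and were tested. Cx3cl1 rose in hMut hearts and Ccl21a fell, and the other 35 did not pass the adjusted threshold of 0.05. One call upward among 37 stands beside a background of 3.48% of 16195 tested genes called higher in hMut, and one call downward beside 1.14% called lower, so both counts are close to the background. At an unadjusted p under 0.05, 12 of the 37 had higher and 5 had lower levels (32.43% and 13.51%), compared with 14.49% and 11.31% of all genes tested. The log2 fold change was positive for 29 of the 37, with a median of 0.37, against a median of 0.0023 over all genes tested. Without hMut 6 and hMut 9 the median of the same 37 genes was -0.03, and the fold change of 16 of them had the opposite sign. In 0 of the 37 did all hMut hearts lie above, or all below, every Ctrl heart, compared with 0.543% and 0.0617% of all genes tested. DESeq2 by default replaces a count far from the rest of a group of this size. It did so for hMut 6 in 8 of the 37 genes (Ccl5, Ccl8, Ccl22, Cxcl9, Cxcl10, Cxcr3, Cxcr6 and Xcr1). The fold changes of these 8 in DESeq2 were much smaller than in edgeR. Over the whole count table, 533 of 56748 genes had a count replaced in at least 1 heart. That number covers any heart and includes genes too low to be tested, so it is not a like-for-like background for the 8 of 37.

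Cx3cl1 encodes fractalkine, a membrane-anchored chemokine of endothelium and other tissue cells. In GRCm39 it lies on chr8:95498637-95509055, plus strand. Cx3cl1 levels in Ctrl hearts were 10.9 CPM at the lowest, 13.4 CPM at the median and 17.1 CPM at the highest, and in hMut hearts 14.1, 19.6 and 40.5 CPM. Of the 9 hMut hearts, 7 lay above every Ctrl heart, while hMut 2 and hMut 8 lay within the Ctrl range. The mean was 13.6 ± 1.99 CPM in Ctrl (SD, n = 8) and 21.5 ± 8.03 CPM in hMut (SD, n = 9), a log2 fold change of 0.67 ± 0.17 (SE; Benjamini-Hochberg adjusted p = 0.0357 in the quasi-likelihood test of edgeR). The highest values came from hMut 6 and hMut 9, and without both the log2 fold change was 0.42 and still passed the threshold (adjusted p = 0.0389 in edgeR). The call was lost with sex as a covariate (adjusted p = 0.0522), without Ctrl 2 and Ctrl 3 (adjusted p = 0.0744), and in 9 of the 17 fits that left out 1 heart. Of 8 endothelial markers, Kdr, a VEGF receptor, rose (log2 fold change 0.39 ± 0.10, SE; adjusted p = 0.0407 in edgeR), with 6 of 9 hMut hearts above every Ctrl heart. The other 7 did not pass, among them Pecam1 and Cdh5 at 0.14 and 0.15. The summed level of the list was 2490 to 3512 CPM in hMut and 2779 to 3411 CPM in Ctrl. Most of that sum was Cd36 (mean 2026 CPM in Ctrl and 1889 CPM in hMut), so it mainly follows that 1 gene. The part of these markers in the Cx3cl1 difference was not tested.

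Cx3cr1, the fractalkine receptor of resident macrophages, monocytes and some lymphocytes, ran from 3.83 CPM through a median of 7.64 CPM to 12.2 CPM in Ctrl. In hMut it ran from 6.25 CPM through 13.2 CPM to 61.5 CPM. The top value was that of hMut 6 and the next, 27.4 CPM, that of hMut 9, but 6 of the 9 hMut hearts exceeded every Ctrl heart. For Cx3cr1 the log2 fold change was 1.16 ± 0.41 (SE; adjusted p = 0.1001 in edgeR), and 0.39 without hMut 6 and hMut 9 (adjusted p = 0.387).

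Ccl21a is the CCR7 ligand made by lymphatic endothelium and lymphoid stroma, where it guides dendritic cells and T cells. It lies in GRCm39 on chr4:42772860-42773993, minus strand. Ccl21a levels ran from 10.9 CPM through a median of 19.6 CPM to 27.0 CPM in Ctrl hearts and from 5.06 CPM through 10.6 CPM to 18.2 CPM in hMut hearts. Of the 9 hMut hearts, 5 lay below every Ctrl heart, and none lay above the Ctrl median. The means were 19.5 ± 5.34 CPM in Ctrl (SD, n = 8) and 11.2 ± 4.22 CPM in hMut (SD, n = 9), a log2 fold change of -0.79 ± 0.22 (SE; Benjamini-Hochberg adjusted p = 0.0466 in the quasi-likelihood test of edgeR). This call held in 4 of the 17 fits that left out 1 heart (log2 fold change -0.91 to -0.70) and was lost without hMut 6 and hMut 9 (adjusted p = 0.111) and without Ctrl 2 and Ctrl 3 (adjusted p = 0.104). Of 6 lymphatic endothelial markers, 0 passed the threshold in either direction, and their summed level was 111 to 157 CPM in hMut and 137 to 162 CPM in Ctrl. Prox1 was the largest part of that sum (mean 89.1 CPM in Ctrl and 77.2 CPM in hMut), and Lyve1 is also in the macrophage list. The log2 fold change was positive for 2 of the 6, Flt4 and Pdpn (0.17 and 0.35), and lowest for Reln (-0.35). The part of these markers in the Ccl21a difference was not tested.

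The receptor for CCL21, Ccr7, carried by migrating dendritic cells and naive T cells, did not pass the threshold. It ran from 0.135 CPM through 0.324 CPM to 0.920 CPM in Ctrl and from 0.163 CPM through 0.358 CPM to 3.27 CPM in hMut, where the highest value was that of hMut 6. The log2 fold change was 0.71 ± 0.56 (SE; adjusted p = 0.416 in edgeR), -0.06 without hMut 6 and -0.44 without hMut 6 and hMut 9. Ccl19, the other CCR7 ligand, was too low to be tested, with at most 3 counts in any Ctrl heart, and 47, 13, 10 and 5 counts in hMut 6, hMut 9, hMut 8 and hMut 7.

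**Figure D2:**
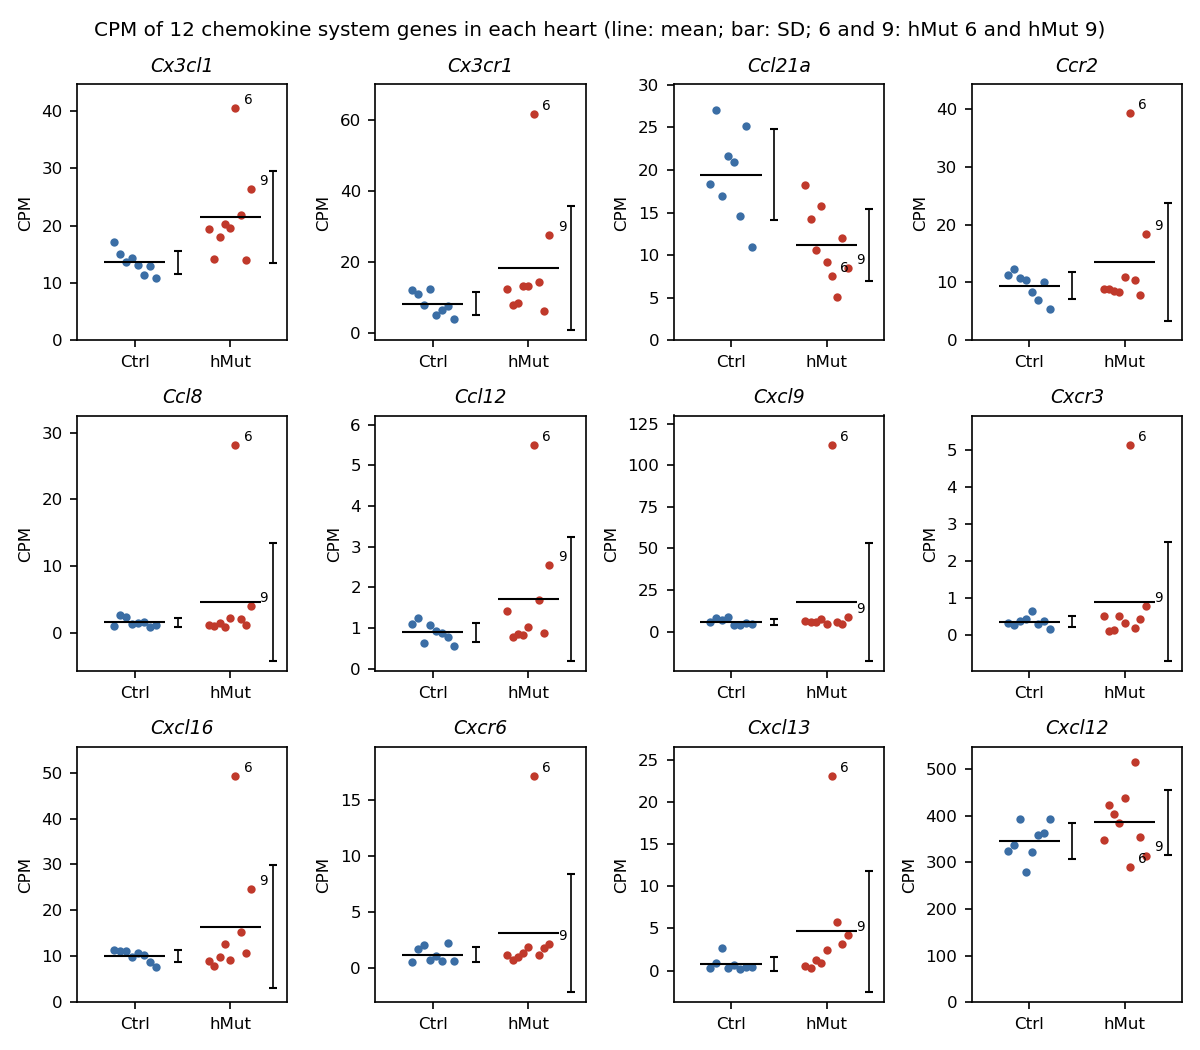
CPM of 12 chemokine system genes in each heart, with each point 1 heart, the line the group mean and the bar 1 SD; the numbers 6 and 9 mark hMut 6 and hMut 9. Cx3cl1 and Ccl21a are shifted across most hMut hearts, whereas for Cxcl9, Cxcr3, Cxcr6 and Ccl8 the other hMut hearts lie near Ctrl and hMut 6 lies far above.

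In the CXCL12 axis, the most abundant in these hearts, neither the ligand nor its receptors passed the threshold. Cxcl12 itself was 280, 349 and 394 CPM (lowest, median and highest) in Ctrl and 290, 384 and 516 CPM in hMut. The highest value was that of hMut 7, and hMut 6 was the lowest of the hMut hearts. For Cxcl12 the log2 fold change was 0.15 ± 0.10 (SE; adjusted p = 0.323 in edgeR). Cxcr4, its signalling receptor on leukocytes and endothelium, had levels of 4.43, 6.34 and 8.91 CPM in Ctrl and 6.14, 7.93 and 13.0 CPM in hMut, with 3 hMut hearts above every Ctrl heart. Its log2 fold change was 0.36 ± 0.17 (SE; adjusted p = 0.181 in edgeR). Ackr3, which takes up CXCL12 without G protein signalling, had lower values in hMut, at 48.6, 56.4 and 75.9 CPM against 54.9, 75.3 and 85.9 CPM in Ctrl. Of the hMut hearts, 4 lay below every Ctrl heart for Ackr3. The log2 fold change of -0.30 ± 0.10 (SE) did not pass the threshold (adjusted p = 0.0825 in edgeR) but passed it in DESeq2 (adjusted p = 0.0476) and with sex as a covariate (adjusted p = 0.0424). It kept its size without hMut 6 and hMut 9, at -0.27 (adjusted p = 0.176).

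Cxcl9, Cxcl10 and Cxcl11, the interferon-inducible ligands of CXCR3 that draw activated T and NK cells, lie side by side on chromosome 5. Cxcl9 ran from 4.03 CPM through 5.31 CPM to 8.60 CPM in Ctrl hearts and from 4.47 CPM through 5.80 CPM to 112 CPM in hMut hearts. The value of 112 CPM was that of hMut 6, and hMut 9, at 8.90 CPM, was the only other hMut heart above every Ctrl heart. Cxcl10 ran from 0.186 CPM through 0.692 CPM to 2.18 CPM in Ctrl and from 0.357 CPM through 1.19 CPM to 22.01 CPM in hMut, again with hMut 6 at the top. The log2 fold changes were 1.62 ± 0.65 for Cxcl9 and 2.03 ± 0.79 for Cxcl10 (SE; adjusted p = 0.136 and 0.126 in edgeR), without hMut 6 and hMut 9 they were -0.02 and 0.22, and in DESeq2 0.0681 and 0.44. Cxcl11 had at most 1 count in any Ctrl heart, 28 counts in hMut 6 and up to 7 counts in the other hMut hearts, and was not tested.

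Promoters of Cxcl9 and Cxcl10 are shown because both genes had their highest value in the same heart and both are textbook interferon targets. The sequences are RefSeq promoters, matched to GRCm39, and run from 230 to 111 bases before the RefSeq transcription start on the minus strand, chr5:92476049-92476168 for Cxcl9 and chr5:92496859-92496978 for Cxcl10. Capitals mark matches to an interferon-stimulated response element core (ISRE, GAAANNGAA) or to an NF-kB type motif (GGGNNTTTC), searched on both strands.
Cxcl9: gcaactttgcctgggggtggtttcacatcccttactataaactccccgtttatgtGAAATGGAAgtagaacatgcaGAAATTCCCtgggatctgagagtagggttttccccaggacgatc
Cxcl10: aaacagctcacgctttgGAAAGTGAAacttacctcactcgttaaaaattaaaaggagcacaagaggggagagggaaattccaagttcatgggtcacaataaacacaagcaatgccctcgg
Cxcl9 held 1 match to the ISRE core and 1 to the NF-kB type motif, and these did not overlap, while Cxcl10 held 1 match to the ISRE core. The Cxcl10 stretch also holds gggaaattcc, which the NF-kB type string as searched cannot match. Sites spelled otherwise than the strings searched were not counted, so a lack of matches does not mean a lack of sites. RefSeq promoters, from 250 bases before to 50 bases after the start, were found for 47 of the 62 genes. The ISRE core was present in 8 of these 47 and in 8.56% of all 32851 promoters, the NF-kB type motif in 12 of 47 and 4.36%, a GAS motif (TTCNNNGAA) in 4 of 47 and 8.3%, and TATAAA in 15 of 47 and 13.6%. Counts out of 47 are of genes with a match in any of their promoters, whereas the percentages are of single promoters, so the units differ. A match is a string of letters in the window and says nothing of binding in these hearts.

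Cxcr3, the shared receptor of CXCL9, CXCL10 and CXCL11, had its highest level in hMut 6 at 5.14 CPM. It ran from 0.163 CPM through 0.350 CPM to 0.647 CPM in Ctrl and from 0.110 to 0.525 CPM in the 7 hMut hearts other than hMut 6 and hMut 9. The log2 fold change was 1.33 ± 0.65 (SE; adjusted p = 0.206 in edgeR), -0.16 without hMut 6 and hMut 9 and 0.0594 in DESeq2. The T or NK cell marker sum moved with these genes in hMut 6, and its part in them was not tested.

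Cxcl16, a membrane-anchored ligand of macrophages and endothelium, and its receptor Cxcr6, found on effector T cells, also peaked in hMut 6. Cxcl16 ran from 7.78 CPM through 10.5 CPM to 11.4 CPM in Ctrl and from 7.81 CPM through 10.7 CPM to 49.3 CPM in hMut, with 4 hMut hearts above every Ctrl heart. Cxcr6 ran from 0.518 CPM through 0.873 CPM to 2.19 CPM in Ctrl and from 0.688 CPM through 1.36 CPM to 17.1 CPM in hMut, and hMut 6 was the 1 heart above every Ctrl heart. The log2 fold changes were 0.70 ± 0.32 for Cxcl16 and 1.41 ± 0.62 for Cxcr6 (SE; adjusted p = 0.173 and 0.161 in edgeR). Without hMut 6 and hMut 9 they were 0.07 and 0.11, and in DESeq2 Cxcr6 was at 0.22. Exons of Cxcl16 share 2132 bases with Zmynd15 on the opposite strand and those of Cxcl10 share 133 bases with Art3, so reads there may not be separable from those genes.

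Cxcl13, the follicular attractant of B cells through CXCR5, had the largest fold change of the tested genes. Its level ran from 0.170 CPM through 0.433 CPM to 2.73 CPM in Ctrl and from 0.303 CPM through 2.44 CPM to 23.1 CPM in hMut. The highest Ctrl value was that of Ctrl 3, the heart with the highest B or plasma cell marker sum, and hMut 6, 7, 8 and 9 lay above it at 23.1, 5.82, 3.21 and 4.22 CPM. The log2 fold change was 2.67 ± 0.78 (SE; adjusted p = 0.0563 in edgeR). It was 3.34 without Ctrl 3 (adjusted p = 0.0308) and 1.501 without hMut 6 and hMut 9 (adjusted p = 0.187), so which hearts enter decides the call. Cxcr5, its receptor on B cells and follicular helper T cells, was 0.0284, 0.278 and 2.98 CPM in Ctrl, again highest in Ctrl 3, and 0.0823, 0.517 and 0.692 CPM in hMut. Its log2 fold change was -0.63 ± 0.60 (SE; adjusted p = 0.517 in edgeR) and 0.77 without Ctrl 2 and Ctrl 3. Exons of Cxcr5 share 118 bases with the more abundant Bcl9l on the opposite strand, so its low counts are uncertain.

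The CCR2 axis, which brings monocytes from blood into inflamed tissue, lay near Ctrl in most hMut hearts. Ccr2 ran from 5.41 CPM through 10.2 CPM to 12.3 CPM in Ctrl and from 7.82 CPM through 8.86 CPM to 39.2 CPM in hMut. The median hMut heart was below the median Ctrl heart, and hMut 6 and hMut 9 were the only hearts above the Ctrl range. Of the CCR2 ligands, Ccl2 ran from 1.44 CPM through 2.83 CPM to 5.11 CPM in Ctrl and from 1.62 CPM through 2.74 CPM to 11.8 CPM in hMut. Ccl7 ran from 1.09 CPM through 1.77 CPM to 2.65 CPM in Ctrl and from 1.10 CPM through 1.84 CPM to 11.1 CPM in hMut. Ccl12 ran from 0.557 CPM through 0.898 CPM to 1.24 CPM in Ctrl and from 0.770 CPM through 1.02 CPM to 5.50 CPM in hMut. Each of the 3 ligands had its highest value in hMut 6. The groups overlapped for all of them, with 1 hMut heart above every Ctrl heart for Ccl2, 2 for Ccl7 and 4 for Ccl12. The log2 fold changes were 0.52 ± 0.30 for Ccr2, 0.48 ± 0.37 for Ccl2, 0.73 ± 0.39 for Ccl7 and 0.95 ± 0.37 for Ccl12 (SE; adjusted p = 0.278, 0.406, 0.233 and 0.130 in edgeR). Without hMut 6 and hMut 9, Ccr2, Ccl2 and Ccl7 had values of -0.05, -0.08 and -0.0037, whereas Ccl12 had 0.25.

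CCR1 is a receptor of macrophages and other myeloid cells for inflammatory CC ligands, CCL3 and CCL5 among them. Ccr1 ran from 0.404 CPM through 0.778 CPM to 1.53 CPM in Ctrl and from 0.352 CPM through 0.764 CPM to 2.21 CPM in hMut, with hMut 9 highest. For Ccr1, 2 hMut hearts lay above and 2 below every Ctrl heart. Ccl5, the product of T cells, NK cells and platelets known as RANTES, ran from 0.395 CPM through 0.668 CPM to 2.16 CPM in Ctrl and from 0.370 CPM through 0.839 CPM to 17.6 CPM in hMut. The highest Ctrl value was that of Ctrl 3 and the highest hMut value that of hMut 6, the hearts with the highest T or NK cell marker sum in their groups. The log2 fold changes were 0.23 ± 0.37 for Ccr1 and 1.81 ± 0.75 for Ccl5 (SE; adjusted p = 0.717 and 0.147 in edgeR). Without hMut 6 and hMut 9 they were -0.34 and -0.10, and in DESeq2 Ccl5 was at 0.17. Ccl3 and Ccl4 were not tested. Ccl4 had 1 to 9 counts in Ctrl, 132 counts in hMut 6, 31 in hMut 9 and 3 to 12 in the other hMut hearts. Ccl3 had 0 to 7 counts in Ctrl, 49 in hMut 6, 24 in hMut 9 and at most 5 in the rest.

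Among the remaining myeloid CC ligands, Ccl6 and Ccl9, ligands of CCR1, were abundant in both groups. Ccl6 ran from 6.18 CPM through 10.7 CPM to 13.5 CPM in Ctrl and from 7.41 CPM through 11.1 CPM to 23.4 CPM in hMut, where hMut 6 and hMut 9 alone exceeded the Ctrl range. Ccl8, a monocyte chemoattractant that engages CCR8 in the mouse, ran from 0.896 CPM through 1.36 CPM to 2.68 CPM in Ctrl and from 0.859 CPM through 1.46 CPM to 28.1 CPM in hMut. The level of Ccl8 in hMut 6 was 18.0 times the Ctrl mean, and in hMut 9 it was 2.58 times that mean. The log2 fold changes were 0.32 ± 0.21 for Ccl6 and 1.59 ± 0.67 for Ccl8 (SE; adjusted p = 0.339 and 0.150 in edgeR), without hMut 6 and hMut 9 they were -0.0033 and -0.12, and in DESeq2 Ccl8 was at 0.15. Ccr8 itself reached 49 counts in hMut 6 and 5 in hMut 1, with at most 3 in every other heart.

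XCL1 and XCR1 link T and NK cells to cross-presenting dendritic cells. Xcr1 ran from 0.218 CPM through 0.617 CPM to 0.920 CPM in Ctrl and from 0.138 CPM through 0.494 CPM to 9.05 CPM in hMut, with hMut 6 highest and hMut 9 next. For Xcr1 the log2 fold change was 1.37 ± 0.69 (SE; adjusted p = 0.216 in edgeR), -0.42 without these hearts and -0.0789 in DESeq2. Xcl1 was not tested, and had 193 counts in hMut 6 and at most 6 in every other heart. Ccl22, a dendritic cell ligand of CCR4, was 0.186, 0.408 and 0.729 CPM in Ctrl and 0.0825, 0.341 and 7.11 CPM in hMut, again with hMut 6 at the top. Its log2 fold change was 1.51 ± 0.76 (SE; adjusted p = 0.213 in edgeR), -0.14 without hMut 6 and hMut 9 and -0.0111 in DESeq2. The summed level of 10 monocyte or dendritic cell markers, of which Ccr2 and Xcr1 are members, was 122 CPM in hMut 6, 61.3 CPM in hMut 9, at most 41.5 CPM in other hMut hearts and 29.2 to 50.5 CPM in Ctrl. Its part in these differences was not tested.

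Not every inflammatory ligand was high in hMut 6. Ccl11, the eotaxin that draws eosinophils through CCR3, had lower values in hMut, at 0.731, 1.14 and 1.88 CPM (lowest, median and highest) against 0.823, 2.27 and 4.22 CPM in Ctrl. Its groups overlapped, with 2 hMut hearts below every Ctrl heart. For Ccl11 the log2 fold change was -0.89 ± 0.28 (SE; adjusted p = 0.0737 in edgeR), and -0.79 without hMut 6 and hMut 9 (adjusted p = 0.160). It passed the threshold in DESeq2 (adjusted p = 0.0263) and with sex as a covariate (adjusted p = 0.0291), whereas limma-voom with quality weights gave -0.47 (adjusted p = 0.334). Ccl24, the other eotaxin tested, had its lowest value of all 17 hearts in hMut 6, 0.166 CPM, against 0.622 to 1.99 CPM in Ctrl (log2 fold change 0.12 ± 0.33, SE; adjusted p = 0.835 in edgeR). Ccr3 was below the filter, with its highest count, 28, in Ctrl 3 and 1 to 8 in every other heart.

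CXCR2 and its ligands bring neutrophils into tissue. Cxcl1 had lower values in hMut, at 0.426, 0.666 and 1.10 CPM against 0.650, 0.950 and 1.76 CPM in Ctrl, with 3 hMut hearts below every Ctrl heart. Its log2 fold change was -0.60 ± 0.22 (SE; adjusted p = 0.112 in edgeR) and -0.64 without hMut 6 and hMut 9. Cxcl5 and Cxcr2 had log2 fold changes of -0.13 ± 0.41 and 0.28 ± 0.40 (SE; adjusted p = 0.866 and 0.680 in edgeR). Cxcl2 had 1 to 5 counts in Ctrl and 0 to 12 in hMut. The summed level of 8 neutrophil markers, of which Cxcr2 is one, was 2.32 to 6.70 CPM in Ctrl, 8.20 CPM in hMut 6, 7.12 CPM in hMut 9 and 2.39 to 6.67 CPM in the other hMut hearts, with the defining genes Ly6g and Elane at most 0.0747 and 0.0317 CPM and Csf3r up to 5.95 CPM in hMut 6. Their part in these values was not tested. Promoters of Cxcl1 and Cxcl2 are shown beside those of Cxcl9 and Cxcl10 because they carry the NF-kB type motif and no ISRE core. They run from 130 to 11 bases before the RefSeq start on the plus strand of GRCm39, chr5:91038974-91039093 and chr5:91051628-91051747, with NF-kB type matches on either strand in capitals.
Cxcl1: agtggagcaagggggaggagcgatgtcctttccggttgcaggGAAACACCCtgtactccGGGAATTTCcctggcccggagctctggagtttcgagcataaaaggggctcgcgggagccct
Cxcl2: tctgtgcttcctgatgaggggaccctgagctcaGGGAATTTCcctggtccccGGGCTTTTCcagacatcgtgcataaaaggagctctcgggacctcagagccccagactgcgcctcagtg
Each of the pair held 2 NF-kB type matches that did not overlap.

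Of the genes outside these axes, Ccr10, the receptor for CCL27 and CCL28, had an unadjusted p of 0.0445 in edgeR's quasi-likelihood test across all genes. It was 0.448, 0.682 and 1.02 CPM in Ctrl and 0.357, 0.586 and 0.660 CPM in hMut, with 1 hMut heart below every Ctrl heart (log2 fold change -0.37 ± 0.17, SE; adjusted p = 0.183). Cxcl14 was 23.0, 45.8 and 53.7 CPM in Ctrl and 23.5, 42.6 and 65.1 CPM in hMut (log2 fold change 0.06 ± 0.21, SE; adjusted p = 0.878 in edgeR). The scavengers Ackr2, which clears inflammatory CC ligands, and Ackr4, which clears CCL19, CCL21 and CCL25, had log2 fold changes of 0.21 ± 0.16 and 0.04 ± 0.20 (SE; adjusted p = 0.418 and 0.925 in edgeR). Ccl27a and Ccl25 had fold changes near 0, at -0.06 ± 0.13 and 0.04 ± 0.14 (SE; adjusted p = 0.786 and 0.885 in edgeR). Ackr4, Ccl25 and Ccl27a share 1663, 604 and 19 exon bases with Acad11, Elavl1 and Il11ra1 on the opposite strand, so their counts are uncertain if strand was not used. Ackr1, Ccl1, Ccl17, Ccl28, Ccr1l1, Ccr4, Ccr6 and Ccr9 were detected in some hearts and not tested. Ccl1 had 23 counts and Ccl17 24 counts in hMut 6, with at most 4 and 8 in the other hearts. The other 6 had between 0 and 26 counts in a heart.

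**Figure D3:**
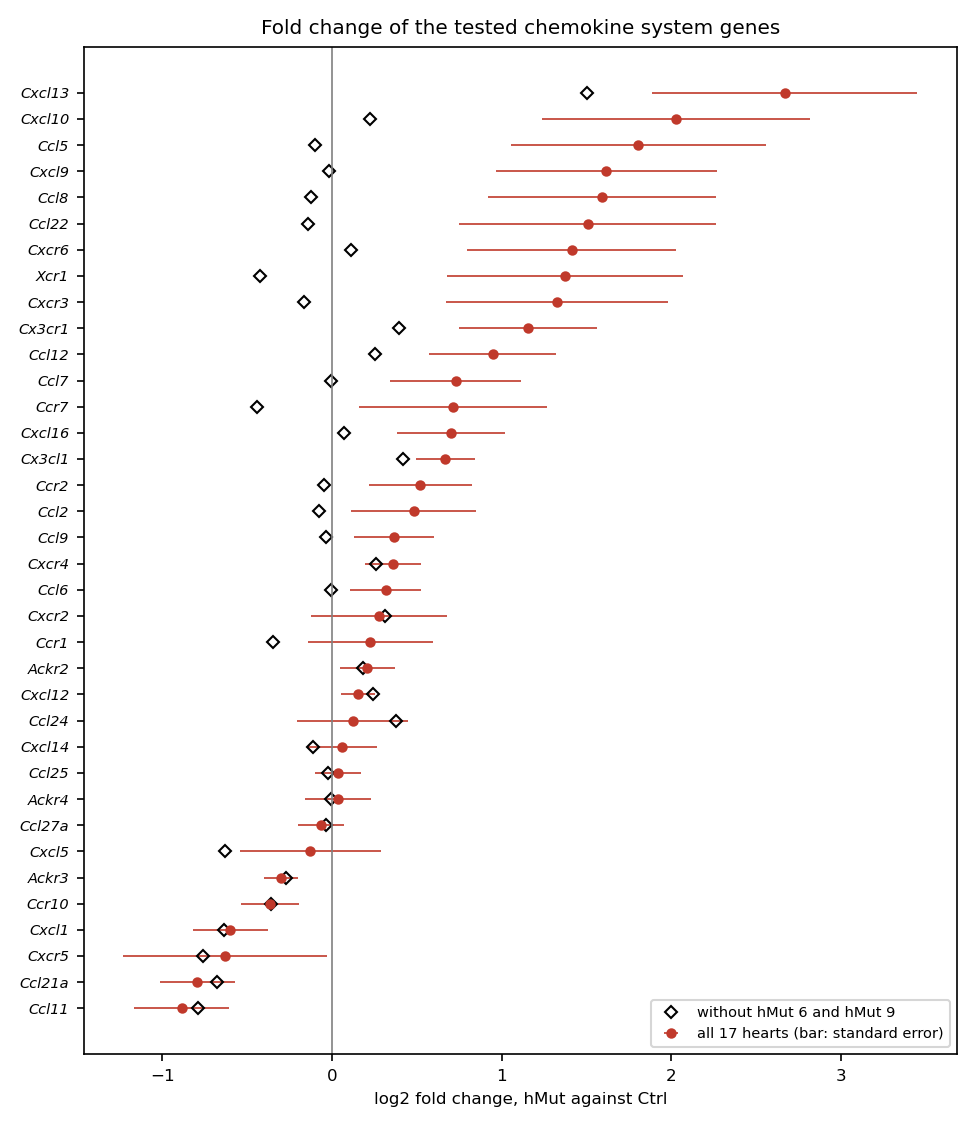
log2 fold change of 36 tested chemokine system genes, hMut against Ctrl, from edgeR; red points use all 17 hearts with bars of 1 standard error, and open diamonds leave out hMut 6 and hMut 9. Diamonds for many inflammatory genes fall near 0, with a median of -0.03 over the 37 tested, and 16 of the 37 change sign. Cx3cl1, Cxcl13, Ccl21a, Ccl11, Cxcl1 and Ackr3 are among those that stay on their side of 0. Without both hearts, only Cx3cl1 passes the adjusted threshold.

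Taking the hearts one at a time, hMut 6 had the highest level of all 17 hearts for 22 of the 37 tested genes. It lay above every Ctrl heart for 24 of the 37, compared with 31.1% of all genes tested, and hMut 9 did so for 19 of the 37, compared with 27.9% of all genes. In the other 7 hMut hearts this number was between 2 and 9 of the 37, compared with 10.9% to 17.7% of all genes tested. In hMut 6, 14 of the 37 genes exceeded 5 times their Ctrl mean. That heart lay below every Ctrl heart for 5 of the 37, compared with 28.8% of all genes tested. How many of all genes were highest in hMut 6, or exceeded 5 times their Ctrl mean there, was not counted. The summed level of the CC receptors was 102 CPM in hMut 6 and 47.1 CPM in hMut 9, against 12.9 to 25.9 CPM in Ctrl and 15.6 to 23.7 CPM in the other hMut hearts. The summed level of the atypical receptors showed no such peak. It was 59.8 CPM in hMut 6, within the 56.2 to 80.5 CPM of all hMut hearts and just under the 61.2 to 89.6 CPM of Ctrl. Most of it was Ackr3, at 52.8 CPM in hMut 6. Ackr4 and Ackr1 were slightly above every Ctrl heart there, at 4.83 and 0.355 CPM against at most 4.64 and 0.324 CPM, and Ackr2 was within the Ctrl range. At the opposite end, Ctrl 8 had the lowest level of all 17 hearts for 12 of the 37 genes. It lay below every other Ctrl heart for 16 of the 37, compared with 12.8% of all genes tested. Its macrophage marker sum, 204 CPM, was also the lowest.

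**Figure D4:**
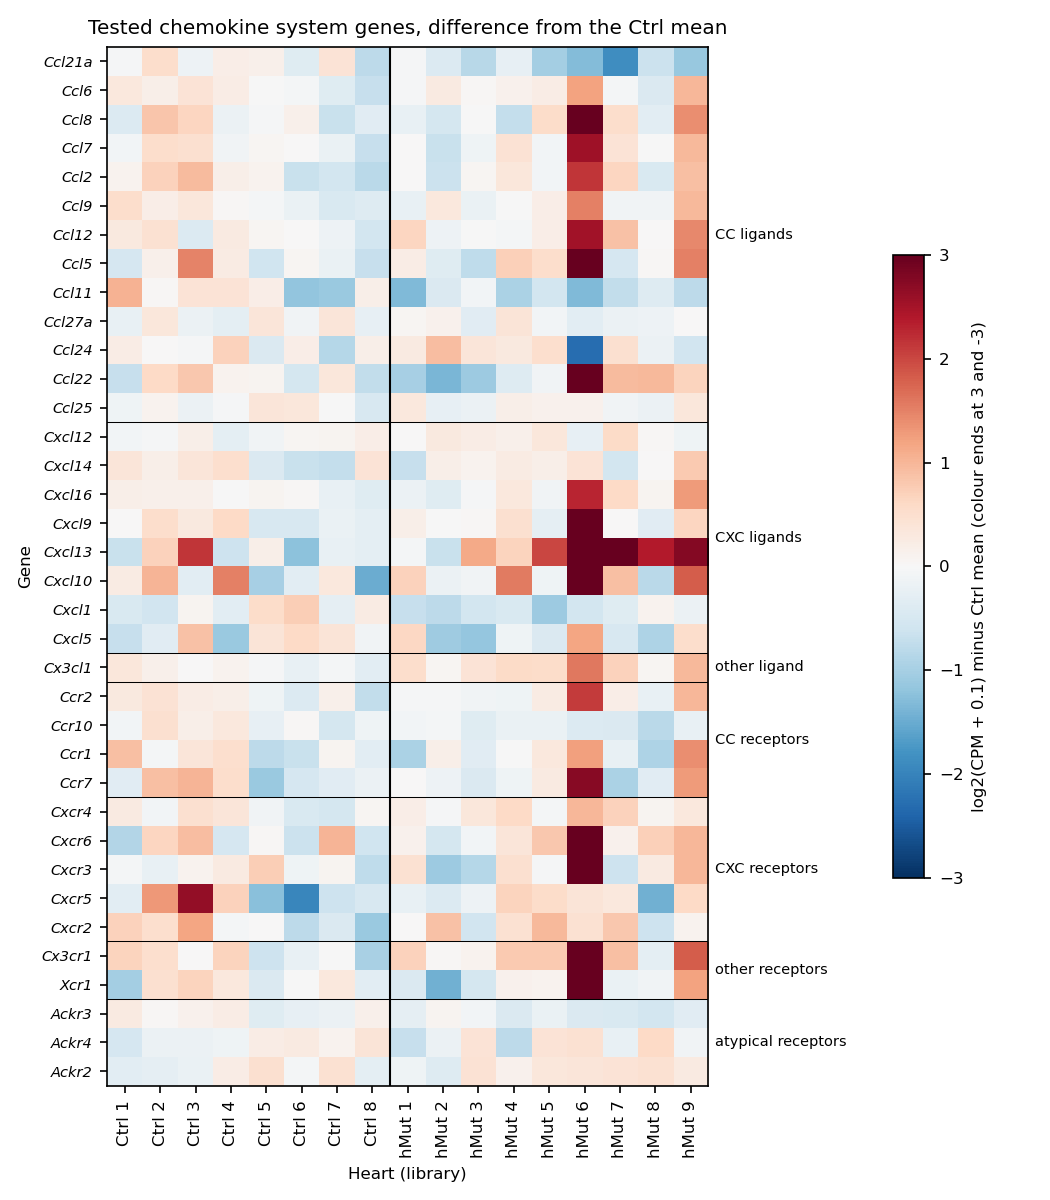
Difference of 36 tested chemokine system genes in each heart from the mean of the Ctrl hearts, on the log2(CPM + 0.1) scale, grouped by role; red is higher, blue is lower, and colours end at 3 and -3. The column of hMut 6 is red for most ligands and receptors, hMut 9 is paler, and the row of Ccl21a is blue in most hMut hearts.

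The genes were counted by whole chromosome. Those on chromosomes 11, 5 and 9 spanned 30.7, 44.7 and 79.5 Mb, so these are not counts of single clusters. Chromosome 11 held 14 of the 62 genes, 12 of them ligands, chromosome 5 held 11, all ligands, and chromosome 9 held 14, all receptors. Of the tested genes, 9 of 11 on chromosome 11, 4 of 6 on chromosome 5 and 5 of 9 on chromosome 9 were highest in hMut 6. The share of all tested genes highest in hMut 6 was not counted, on these chromosomes or elsewhere. On chromosome 11, Ccl11, which lies between Ccl7 and Ccl12, was low in hMut 6 at 0.734 CPM, while Ccl7 and Ccl12 had their highest values in that heart.

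Genes that work with the chemokine system were described from lists written with earlier results of these data known, and their counts stand beside the 3.48% of all genes called higher and the 1.14% called lower. Of 34 tested genes of receptor signalling, 3 rose and 0 fell, namely Gnb1, a G protein beta subunit (log2 fold change 0.21 ± 0.05, SE; adjusted p = 0.0336), Grk5, a receptor kinase (0.36 ± 0.10; adjusted p = 0.0442), and Rgs19, a regulator of G protein signalling (0.45 ± 0.13; adjusted p = 0.0482), all in edgeR. The median log2 fold change of that list was 0.22. Of 6 tested chemokine genes outside the name rule, Mif, a cytokine that binds CXCR2 and CXCR4, rose by 0.58 ± 0.10 on the log2 scale (SE; adjusted p = 0.00181 in edgeR), from 42.5 ± 3.86 CPM in Ctrl (SD, n = 8) to 63.4 ± 11.1 CPM in hMut (SD, n = 9), with 8 of 9 hMut hearts above every Ctrl heart. The other 5 did not pass, and their smallest p belonged to Rarres2, the chemerin gene (log2 fold change 0.14 ± 0.06, SE; adjusted p = 0.166). Of 10 tested inducers of chemokines, Relb, an NF-kB subunit, rose by 0.54 ± 0.12 on the log2 scale (SE; adjusted p = 0.0147 in edgeR), with 7 of 9 hMut hearts above every Ctrl heart, and 0 fell. Il4, the next by p, had a log2 fold change of 0.46 ± 0.17 (SE; adjusted p = 0.107 in edgeR). No gene passed among 14 tested leukocyte adhesion genes or 9 tested genes that bind or trim chemokines outside the cell. The smallest p values in those lists belonged to Icam1 and Icam2 (log2 fold change 0.51 ± 0.18 and 0.12 ± 0.05, SE; adjusted p = 0.0955 and 0.164 in edgeR) and to Sdc3 and Tnfaip6 (0.32 ± 0.13 and 0.52 ± 0.23; adjusted p = 0.132 and 0.168).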

How the data were processed

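Poly(A) RNA of 17 hearts was sequenced on a NovaSeq X Plus. Per the labels and the submitters' processing notes, the authors used fastp to filter reads and HISAT2 (2.2.1) to align them to GRCm39, and deposited raw counts per gene from featureCounts (2.0.6). The strand setting and the treatment of reads with several matches are not given in the sources used here. Groups were taken from the labels, and replicate numbers name different mice.

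All further values were computed from these counts (R 4.3.3, edgeR 4.0.16, limma 3.58.1, Python 3.11.15, numpy 2.4.6, pandas 2.3.3, matplotlib 3.10.9). Levels are CPM on TMM-scaled library sizes, divided by gene length in kb where levels of different genes are compared. Condition was the only term in edgeR's quasi-likelihood test after filterByExpr, with Benjamini-Hochberg adjustment over 16195 genes at 0.05. The fit was tested on simulated data. Standard errors are the log2 fold change over the square root of F. P-values measure the spread between these hearts. The alternatives were DESeq2 1.42.0, limma-voom with quality weights, RLE normalization, a filter of 10 counts, protein-coding genes without mitochondrial ones, a term for sex (3 Ctrl and 2 hMut libraries were female by Xist and Y-linked counts), a block for the replicate number, and libraries left out. The floor of 3 counts covers counting error only. Motifs were searched in RefSeq promoters (GRCm38.p6), and printed windows were matched exactly in GRCm39.

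The genes, the lists and the hearts left out were chosen with earlier results of these data known. Values are described for genes past the threshold, the 3 most abundant per kb in each class, the listed ligand and receptor pairs and those with an unadjusted p under 0.05, and, of other lists, for genes past the threshold and the 2 with the smallest p. Other genes with values were chosen after these were seen. A planned search of protein sequences was not run. The mtDNA mutation burden of each heart was not used here. A gene of the chemokine system and a gene of another list are counted in the totals but not reported here by name or drawn.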

Additional observations from a re-analysis of the deposited data

Results flagged for a closer look

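Within each group, the highest and the lowest heart were compared with the nearest other heart on the log2(CPM + 1) scale by Dixon's criterion at the 95% level, which chance alone passes in about 1 of 20 groups. Of 74 groups tested, 12 held a heart past it, all of them the highest of its group. In hMut 6 these were Cxcl9 at 112 CPM (next highest hMut heart 8.90 CPM), Ccl8 at 28.1 CPM (4.04), Cxcl10 at 22.01 CPM (2.68), Ccl5 at 17.6 CPM (2.16), Cxcr6 at 17.1 CPM (2.14), Ccl7 at 11.1 CPM (3.67), Xcr1 at 9.05 CPM (1.38), Ccl22 at 7.11 CPM (0.823), Cxcr3 at 5.14 CPM (0.789) and Ccr7 at 3.27 CPM (1.13). In Ctrl 3 they were Cxcl13 at 2.73 CPM, with the next highest Ctrl heart at 0.932 CPM, and Ccl5 at 2.16 CPM, with the next at 0.854 CPM. The rate of 1 in 20 assumes independent groups, whereas most of the 12 were in hMut 6. The rate over all tested genes was not counted. In hMut 6 the T or NK cell marker sum was 110 CPM and the macrophage sum 773 CPM, and in Ctrl 3 the B or plasma cell marker sum was 227 CPM. Their part in these values was not tested.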

How the results depend on the processing

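Against 564 genes higher and 185 lower in hMut with all hearts, DESeq2 called 1010 and 507, limma-voom with quality weights 1175 and 906, and the filter of 10 counts 93 lower. Without hMut 6 and hMut 9 the counts were 316 and 115, without Ctrl 2 and Ctrl 3 306 and 67, and with 1 heart left out 326 to 1128 and 69 to 664, lowest without hMut 5 and highest without hMut 2. Of the chemokine system genes, DESeq2 called 2 higher (Cx3cl1 and Cxcl13) and 3 lower (Ccl21a, Ccl11 and Ackr3), and the sex covariate 0 higher and 3 lower (Ccl21a, Ccl11 and Ackr3). The filter of 10 counts, the fit without hMut 6 and hMut 9 and that without Ctrl 2 and Ctrl 3 each called 0 lower. Without Ctrl 2 and Ctrl 3 the 1 gene called higher was Cxcl13 in place of Cx3cl1. Leaving out 1 heart gave 0 to 2 higher and 0 to 2 lower. Adjusted p over these fits was 0.0127 to 0.0738 for Cx3cl1, 0.0187 to 0.0932 for Ccl21a, 0.0233 to 0.114 for Cxcl13, 0.0443 to 0.142 for Ccl11 and 0.0230 to 0.142 for Ackr3 in edgeR. The cause of these moves was not tested.

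Without hMut 6 and hMut 9 the log2 fold change turned negative for Cxcl14 (-0.11), Cxcl9 (-0.0166), Ccr2 (-0.0488), Ccl6 (-0.0033), Ccl9 (-0.0325), Ackr4 (-0.0077), Ccl2 (-0.0785), Ccl8 (-0.12), Ccl7 (-0.0037), Ccl5 (-0.0975), Ccl25 (-0.0213), Xcr1 (-0.42), Ccr1 (-0.34), Ccl22 (-0.14), Cxcr3 (-0.16) and Ccr7 (-0.44). With quality weights it was -0.0387 for Ackr4, -0.0206 for Ccl25, -0.15 for Xcr1, -0.0774 for Ccr1, -0.22 for Ccl22, -0.15 for Cxcr3, -0.0616 for Ccr7 and 0.53 for Cxcr5. In DESeq2, which replaced the count of hMut 6 for 8 genes, it was -0.0789 for Xcr1 and -0.0111 for Ccl22 and was 0.0681 for Cxcl9, 0.15 for Ccl8, 0.17 for Ccl5, 0.44 for Cxcl10, 0.22 for Cxcr6 and 0.0594 for Cxcr3, with the sex covariate -0.0336 for Ackr4, and without Ctrl 2 and Ctrl 3 -0.0264 for Ackr4 and 0.77 for Cxcr5. With 1 heart left out it spanned 0 for Cxcl14 (-0.0473 to 0.13), Ackr4 (-0.0496 to 0.12), Ccl25 (-0.0283 to 0.0964), Ccl24 (-0.0154 to 0.27), Xcr1 (-0.0613 to 1.53), Ccr1 (-0.0253 to 0.41), Ccr7 (-0.0603 to 0.92), Cxcr5 (-0.81 to 0.23) and Cxcl5 (-0.43 to 0.0404). Genes detected in every, some or no heart numbered 27, 23 and 12 with a floor of more than 10 counts and 34, 19 and 9 with one of 0.1 CPM.

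Replicate numbers name different mice. Deviations of same-numbered hearts correlated between -0.27 and 0.42, and 1 of 8 hearts matched its own number best, so the numbers do not pair the hearts. With the replicate block, 160 genes were higher and 25 lower, 0 chemokine system genes passed in either direction, and the log2 fold change was -0.0177 for Cxcl14 and -0.11 for Ccr1.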

Other observations

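The leukocyte markers tested were 14 of macrophages, 10 of monocytes or dendritic cells, 10 of T or NK cells and 10 of B or plasma cells. Of these, 0 passed the adjusted threshold in either direction in edgeR, beside 3.48% of all genes called higher and 1.14% called lower. In the same order, the log2 fold change was positive for 13, 9, 10 and 1 of them, with medians of 0.41, 0.43, 1.61 and -1.08. The T or NK cell sum was highest in hMut 6 and the B or plasma cell sum in Ctrl 3. The defining macrophage genes Adgre1 and Csf1r, the latter the receptor for macrophage colony-stimulating factor, had log2 fold changes of 0.71 and 0.42 (adjusted p = 0.176 and 0.135 in edgeR), with hMut 6 highest for both. Cd8a, of cytotoxic T cells, reached 25.9 CPM in hMut 6 against at most 2.25 CPM in Ctrl, while the NK cell gene Ncr1 had its highest value, 0.507 CPM, in Ctrl 3. Lyve1 and Timd4, which mark long-lived resident macrophages, had log2 fold changes of -0.13 and 0.40 (adjusted p = 0.561 and 0.403 in edgeR).

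Bmp10, a growth factor of atrial cardiomyocytes, rose in hMut (log2 fold change 5.58, adjusted p = 3.3e-05 in edgeR), from 0.0817 to 0.372 CPM in Ctrl and 0.605 to 25.2 CPM in hMut, with the highest value in hMut 9. Of 7 smooth muscle or pericyte markers, Pdgfrb, the receptor for platelet-derived growth factor of mural cells, rose (log2 fold change 0.24, adjusted p = 0.0442 in edgeR), with 7 of 9 hMut hearts above every Ctrl heart, and 0 of 8 fibroblast markers passed. The atrial genes Sln and Myl7 stayed at or under 0.514 CPM in every heart. The summed level of all 5 atrial markers was 38.6 to 166 CPM in Ctrl and 78.3 to 702 CPM in hMut.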
